A study of Mus musculus with 10 samples.

Results

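S100a4 and 9 relatives that lie near it on mouse chromosome 3 (S100a1, S100a3, S100a5, S100a6, S100a10, S100a11, S100a13, S100a14 and S100a16) were followed across 10 mouse tumors. They were chosen by name: a probe was kept when the gene name in the scanner files was 1 of these 10, and the accession was used to check it. Each of the 10 genes had exactly 1 probe, out of 19505 named genes on the array. A further probe, named S100a15 in the files, shares a synonym with S100a14 but belongs by its accession to S100a7a and was not counted as a member.

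S100 proteins are small calcium sensors. Calcium opens a hydrophobic face on the protein, which then binds and alters a partner, and most family members work as dimers. S100a4, also called metastasin or fibroblast-specific protein, binds non-muscle myosin and is made by fibroblasts, macrophages and carcinoma cells that have become mesenchymal. S100a6 binds annexins and the calcyclin-binding protein, S100a10 is the partner of annexin A2 at the plasma membrane and binds without needing calcium, and S100a11 binds annexin A1. S100a13 takes part in the export of growth factors that lack a signal peptide, S100a1 acts on calcium handling in muscle, and S100a14 is mostly made in epithelia. S100a3 is best known from hair follicles and S100a5 from olfactory neurons.

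The study compared sarcomatoid carcinomas, in which carcinoma cells take a spindle shape, with adenocarcinomas, which keep glands, 5 arrays in each group. The mammary tumors arose in mice in which the MMTV promoter, active in mammary epithelium and some other tissues, drove Cre. The 5 adenocarcinomas (tumors 105, 131, 470, 17 and 85) were mammary tumors that carried Pik3ca H1047R, Trp53 R270H and MMTV-Cre. Of the sarcomatoid tumors, 3 were mammary (323, 307 and 594) and 2 were lung tumors grown after tail vein injection of cell lines derived from tumors 323 and 307. The lung tumors thus grew in recipient mice and not in the animals of the parent tumors. The sample labels read sarcomatoid adenocarcinoma for the mammary and lung tumors of 323 and 307, and sarcomatoid carcinoma for 594 only. The study's methods place them all in a sarcomatoid carcinoma group, and that name is used here. By the study's methods, one parent tumor of a cell line had the same alleles as the adenocarcinomas and the other was Pik3ca H1047R;MMTV-Cre with a spontaneous Trp53 R245H change, and the labels do not say which number is which. The remaining mammary tumor, 594, was then Trp53 R270H;MMTV-Cre. The sarcomatoid group thus holds 3 tumor origins and more than 1 genotype, and histology and genotype cannot be told apart there. The ages of the animals were not given in the sources used here.

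RNA of each tumor was hybridised with a common reference on a 2-colour array, and each value is the log2 of tumor signal over reference signal. The labels name Cy3 (green) as the dye of the tumor, but green varied less between arrays than red (SD across arrays of the log2 signal, averaged over spots, 0.738 in green and 0.987 in red) and the deposited normalized columns follow red over green. Red was therefore read as the tumor. This direction is likely and not settled, and if the dye label is right every log2 ratio and every difference of ratios below changes sign, the channel values change roles, and correlations between genes keep their sign. Between 52.3% and 83.1% of 41174 probes were well above background in the tumor channel. Arrays were read in 3 scan batches: tumor 323 alone, then tumors 307, 594, 105 and 470, then both lung tumors with 131, 17 and 85.

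Tumor 470, labelled adenocarcinoma, stood apart from its group. The mean log2 ratio of 14 epithelial genes was -1.15 in it, against 2.54 to 3.14 in the other adenocarcinomas and -1.39 to 1.17 in the sarcomatoid carcinomas. For this reason the S100a4 result is also given without it, a choice made after these values were seen.

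The members form a dense stretch and a distant pair. On the mm7 build of the scanner files the probes of S100a1, S100a13, S100a14, S100a16, S100a3, S100a4, S100a5 and S100a6 follow each other within 102 kb of chromosome 3. The S100a11 probe lies 2883 kb beyond S100a6, and the S100a10 probe 38.4 kb farther. The S100a4 probe spans chr3:90736122-90736182 and that of S100a6 chr3:90744440-90744499. Whether a probe lies in an exon or a UTR was not looked up, since no annotation of that build was used here.

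The 250 bases before the annotated start are shown for S100a4, S100a6 and S100a11, which had the highest correlations with each other among the members. They are RefSeq sequences of build GRCm38.p6, all on the plus strand, from chr3:90603520-90603769, chr3:90612644-90612893 and chr3:93520246-93520495. Capitals mark matches, on either strand, to the TATA box (TATAAA), the GC box (GGGCGG), the CCAAT box (CCAAT), an E-box (CACCTG) or the AP-1 motif (TGANTCA).
S100a4: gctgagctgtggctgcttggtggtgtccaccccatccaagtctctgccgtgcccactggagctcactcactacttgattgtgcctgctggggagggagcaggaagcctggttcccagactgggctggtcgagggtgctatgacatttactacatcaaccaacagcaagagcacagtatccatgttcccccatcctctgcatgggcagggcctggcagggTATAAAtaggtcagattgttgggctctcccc
S100a6: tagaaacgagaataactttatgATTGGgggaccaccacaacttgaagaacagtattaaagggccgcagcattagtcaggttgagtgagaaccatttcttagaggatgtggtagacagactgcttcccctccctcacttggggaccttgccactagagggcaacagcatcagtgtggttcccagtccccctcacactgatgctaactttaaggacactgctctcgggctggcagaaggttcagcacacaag
S100a11: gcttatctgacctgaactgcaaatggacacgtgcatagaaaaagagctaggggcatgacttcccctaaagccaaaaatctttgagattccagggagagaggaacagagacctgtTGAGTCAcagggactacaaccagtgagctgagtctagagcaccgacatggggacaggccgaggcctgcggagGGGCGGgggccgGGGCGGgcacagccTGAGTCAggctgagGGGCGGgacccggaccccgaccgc
The S100a4 window holds 1 match, the TATA box at positions -31 to -26 counted from the start, and 12.4% of 32851 promoters in the table hold that motif in the same window. In S100a6 the only match is the CCAAT box on the minus strand (33.8% of promoters). S100a11 holds the GC box 3 times (32.7%) and the AP-1 motif at 2 places (6.75%). None of the 3 windows holds the E-box, whose letters Zeb and Snai factors bind (17.2%), and no matches overlapped. Windows were found for 8 of the 10 members. The annotated starts of S100a1 and S100a13 lie 105 bases apart and face away from each other.

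Sarcomatoid carcinomas had higher means than adenocarcinomas for 7 of the 10 members, against 48.8% of all probes. No member passed limma's test with Benjamini-Hochberg adjustment over all probes (adjusted p from 0.377 to 0.995), and the test called 0 of 41174 probes (0%), while 4053 had an unadjusted p below 0.05. Of the members, 5 had an unadjusted p below 0.05, all higher in the sarcomatoid group: S100a4, S100a6, S100a10, S100a11 and S100a13. Among all probes 4.75% were higher with such a p. The median difference of the members was 0.45 on the log2 scale, and -0.0049 over all probes. The groups overlapped for every member, as they did for all but 1.34% of 40884 probes with a value on each array. The count of 5 fell to 2 with scan batch as a term and with 1 value per tumor number, to 3 with slide as a block, and to 1 among mammary tumors only. Leaving out 1 array gave 1 to 5, with 1 without lung tumor 323 and also 1 without tumor 85.

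**Figure D1:**
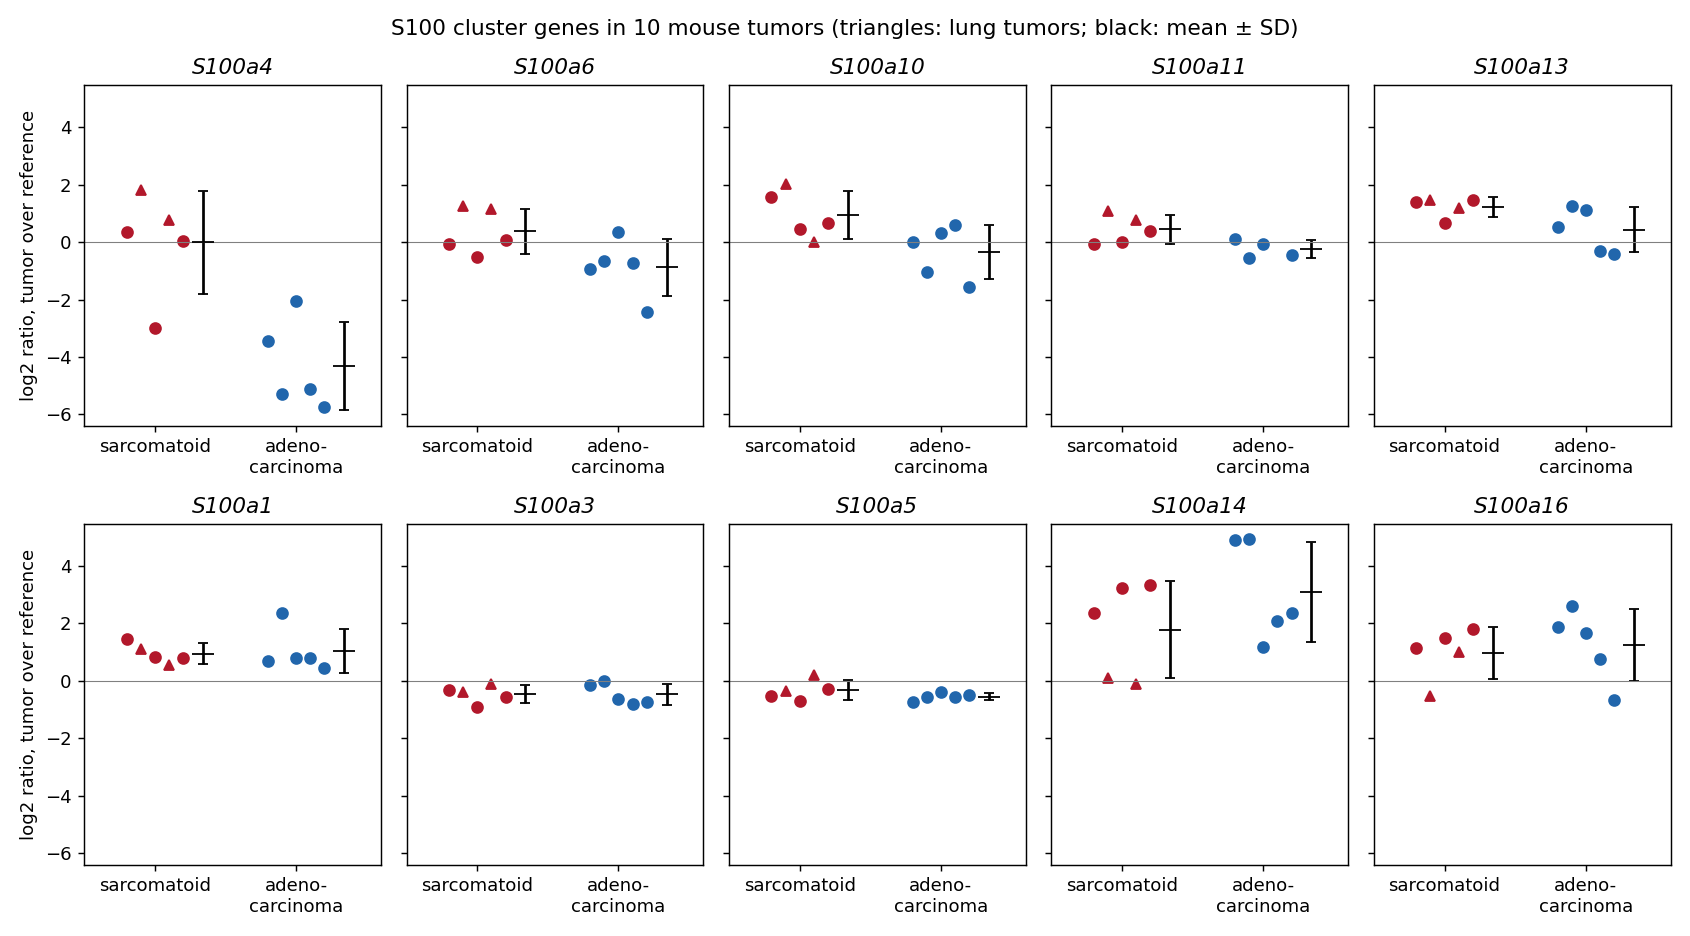
Log2 ratio of tumor over reference (y axis) of each member gene in 5 sarcomatoid carcinomas (red) and 5 adenocarcinomas (blue). Each symbol is 1 tumor, triangles are lung tumors, and black bars are mean ± SD. S100a4 spans from 1.81 in lung tumor 323 to -5.74 in adenocarcinoma 85, while S100a3 and S100a5 each stay within a narrow band in these values.

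S100a4 had the widest range of the members by log2 ratio. In the tumor channel alone S100a14 varied more, 264-fold between its highest and lowest array against 40.2-fold for S100a4. The S100a4 log2 ratio was 0.36 in tumor 323, 1.81 in lung tumor 323, -2.98 in tumor 307, 0.77 in lung tumor 307 and 0.05 in tumor 594. In the adenocarcinomas it was -3.43 in tumor 105, -5.28 in 131, -2.05 in 470, -5.10 in 17 and -5.74 in 85. Both lung tumors and the mammary tumors 323 and 594 lay above every adenocarcinoma, and mammary tumor 307 lay between adenocarcinomas 470 and 105. The means were -0.0003 ± 1.79 and -4.32 ± 1.54 (SD, n = 5 each), a difference of 4.32 (SE 0.96, 95% interval 2.17 to 6.46), or 19.9-fold. This was larger than the spread between arrays in an exact two-sided permutation test of this single gene (p = 0.0159, where the smallest possible is 0.00794). Limma's adjusted p over all probes was 0.377.

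Without tumor 470 the S100a4 difference was 4.89 (SE 0.90) and limma's adjusted p was 0.0416. Without any 1 of the other arrays the adjusted p was 0.285 to 0.638. Tumor 470 had the highest S100a4 of the adenocarcinomas, so leaving it out had to widen the difference, and it had been singled out by epithelial genes, which had lower means in the sarcomatoid group. The call without it is therefore no independent evidence. In that fit 1.53% of all probes were called. No other member was called there, with adjusted p of 0.164 for S100a6, 0.224 for S100a13, 0.249 for S100a10 and 0.309 for S100a11. With 1 value per tumor number, 3 against 5, the exact permutation p for S100a4 was 0.0179, the smallest that design allows. That test averages mammary tumor 307 (-2.98), which lay within the adenocarcinoma range, with lung tumor 307 (0.77). Among mammary tumors only the S100a4 difference was 3.46 (SE 1.06, limma adjusted p = 0.578).

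The S100a4 difference was unequal between scan batches. It was 1.27 in the batch of tumors 307, 594, 105 and 470, and 6.66 in the batch that holds both lung tumors with adenocarcinomas 131, 17 and 85. With scan batch as a term it was 4.21 (SE 1.14). In the second of these batches lung and sarcomatoid cannot be told apart, since every sarcomatoid tumor in it is a lung tumor.

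The reference channel of S100a4 also moved with the groups. A common reference is meant to give a like signal on each array, yet the green median signal of the S100a4 spot was 70820 with tumor 323, 38676 with lung tumor 323, 194265 with tumor 307, 83572 with lung tumor 307 and 97854 with tumor 594. With the adenocarcinomas it ran from 175976 to 202145. The red signal in the same order of sarcomatoid tumors was 206308, 345848, 62556, 244635 and 277723, and in the adenocarcinomas it ran from 8608 to 93469. The 4 arrays on which red was highest were thus the 4 on which green was lowest, and no S100a4 spot was marked as saturated in either channel.

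Green differed 5.23-fold between its highest and lowest array for S100a4, and 1.25% of probes varied as much or more. Sarcomatoid minus adenocarcinoma was -1.18 in quantile-normalized log2 green signal (SE 0.30), a lower value than in all but 0.0704% of probes. S100a6 had -0.48 and S100a10 -0.41 by the same measure. Limma called 0% of probes in this channel, and the unadjusted p was 0.00232 for S100a4, 0.0215 for S100a6 and 0.0337 for S100a10. From the quantile-normalized tumor channel alone, without the reference, the S100a4 difference was 3.26 (SE 0.69, limma adjusted p = 0.349). For S100a6 and S100a10 it was then 0.89 and 0.92, in place of 1.26 and 1.28 by ratio. For S100a14 and S100a11 it was -2.03 and 0.81, in place of -1.31 and 0.68. What set the green signal was not tested.

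**Figure D2:**
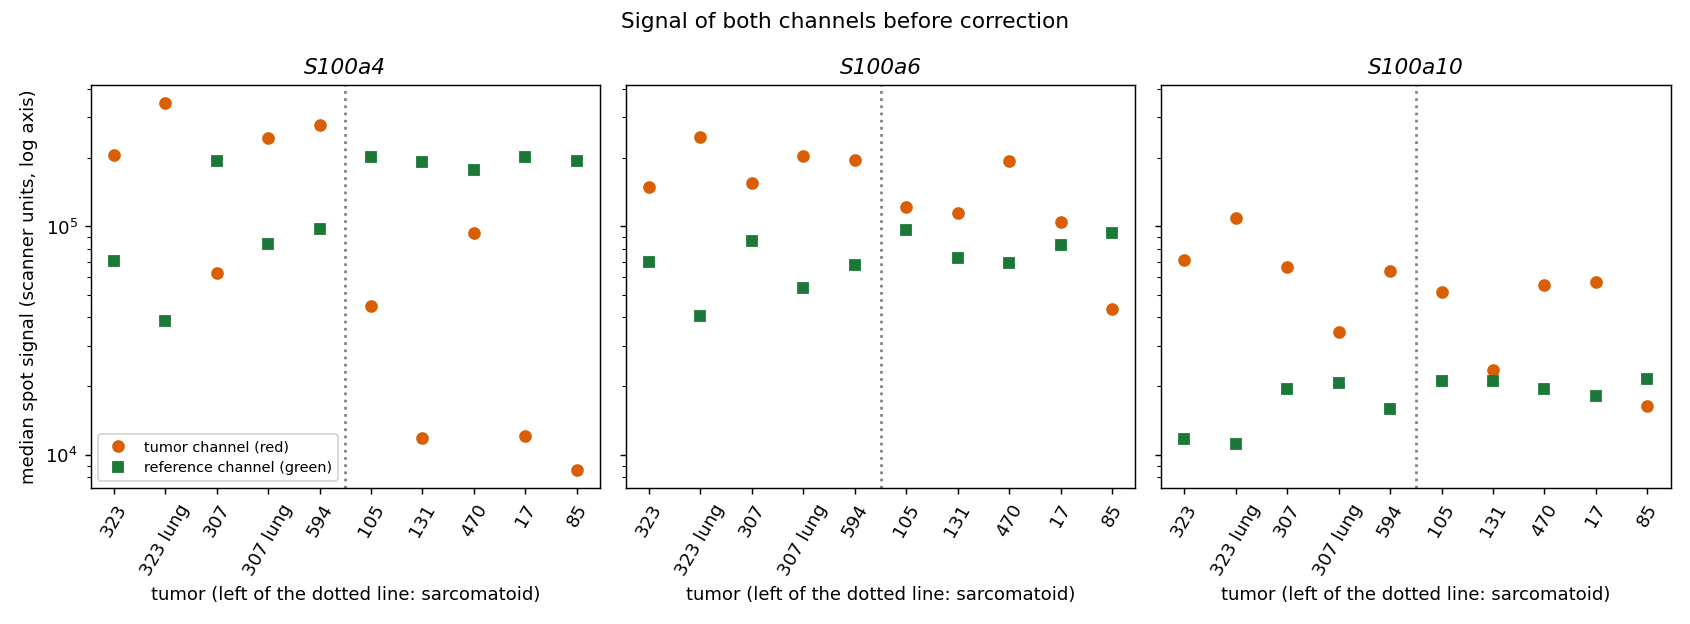
Median spot signal in scanner units (log axis) of S100a4, S100a6 and S100a10 in the tumor channel (orange circles) and the reference channel (green squares) by tumor, before background correction. For S100a4 the reference signal lay between 38676 and 97854 on the arrays of tumors 323, 594 and both lung tumors, and between 175976 and 202145 on the other 6.

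S100a6, next but one to S100a4, was higher in the lung tumors than in any other. Its log2 ratio was -0.08 in tumor 323, 1.26 in lung tumor 323, -0.51 in 307, 1.15 in lung tumor 307 and 0.09 in 594. The adenocarcinomas had -0.93 in tumor 105, -0.65 in 131, 0.34 in 470, -0.73 in 17 and -2.42 in 85. Adenocarcinoma 470 lay above the 3 mammary sarcomatoid tumors, and the other adenocarcinomas lay below all sarcomatoid tumors. The difference was 1.26 (SE 0.52, limma adjusted p = 0.473). Within scan batches it was 0.08 and 2.47.

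S100a10, the annexin A2 partner, was highest in both tumors of number 323. The sarcomatoid tumors had 1.58 (323), 2.01 (lung 323), 0.46 (307), -0.01 (lung 307) and 0.66 (594). Among the adenocarcinomas it was -0.0018 in tumor 105, -1.06 in 131, 0.31 in 470, 0.61 in 17 and -1.56 in 85. Both tumors of number 307 lay within the adenocarcinoma range, and tumor 594 just above it. The difference was 1.28 (SE 0.51, limma adjusted p = 0.464), and 0.41 and 1.67 within scan batches. Anxa2, which encodes its partner, had a difference of 0.62 (unadjusted p = 0.0336, adjusted p = 0.470).

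S100a11 showed a narrower range. It was -0.07 in tumor 323, 1.09 in lung tumor 323, 0.01 in 307, 0.78 in lung tumor 307 and 0.40 in 594, against 0.12 in adenocarcinoma 105, -0.54 in 131, -0.08 in 470 and -0.43 in 85. The spot of tumor 17 was flagged as an outlier by the scanner software and left out, so that n = 4 there, and with flagged spots kept it read -1.81. The difference was 0.68 (SE 0.26, limma adjusted p = 0.463), and 0.19 and 1.42 within scan batches.

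S100a13 was more even among the sarcomatoid tumors than among the adenocarcinomas. It was 1.39 in tumor 323, 1.47 in lung tumor 323, 0.66 in 307, 1.19 in lung tumor 307 and 1.48 in 594, and 0.53, 1.24, 1.13, -0.31 and -0.42 in adenocarcinomas 105, 131, 470, 17 and 85. Tumors 105, 17 and 85 lay below the sarcomatoid range, while tumors 131 and 470 lay inside it. The difference was 0.80 (SE 0.35, limma adjusted p = 0.497). The exact permutation p of each of S100a10, S100a11 and S100a13 was 0.0635, and that of S100a6 was 0.0714. The probe's match in the files runs over 2 ends far apart (chr3:90647126-90655132), so that it crosses an intron.

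**Figure D3:**
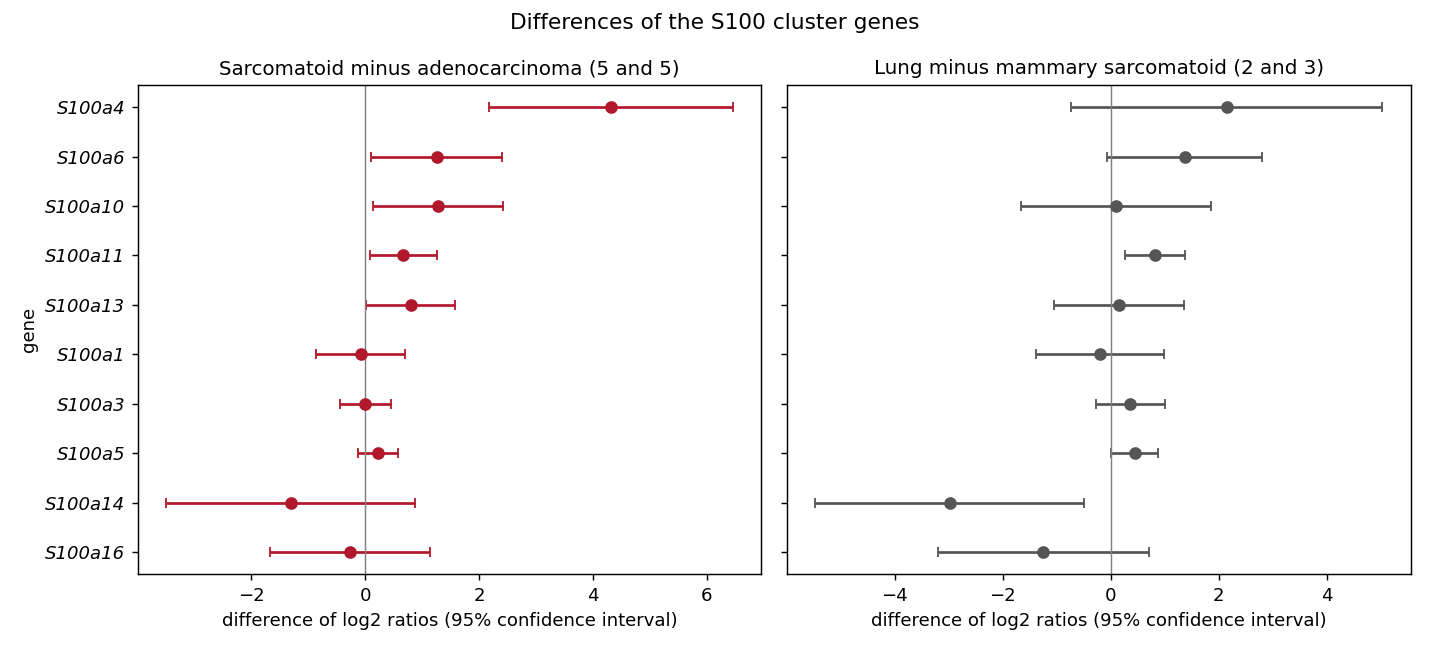
Difference of log2 ratios (x axis) of each member with its 95% confidence interval from limma, for sarcomatoid minus adenocarcinoma (left, red) and for lung minus mammary sarcomatoid tumors (right, grey). On the left S100a4 lies at 4.32 with an interval from 2.17 to 6.46. On the right S100a14 lies at -2.98 and S100a11 at 0.82.

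S100a14 and S100a16 did not share this pattern. S100a14 was 2.36 in tumor 323, 0.10 in lung tumor 323, 3.25 in 307, -0.10 in lung tumor 307 and 3.33 in 594. In adenocarcinomas 105, 131, 470, 17 and 85 it was 4.92, 4.94, 1.17, 2.09 and 2.36. Both lung tumors were below all others, adenocarcinoma 470 came next, and the mammary sarcomatoid tumors lay among the adenocarcinomas. The difference of the groups was -1.31 (SE 0.98, limma adjusted p = 0.730), 0.25 in the batch without lung tumors and -3.13 in the batch with them.

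S100a16 ran from -0.53 in lung tumor 323 to 1.79 in tumor 594, with the other 3 tumors between. The adenocarcinomas ran from -0.67 in tumor 85 to 2.62 in tumor 131, so that the whole sarcomatoid range lay inside theirs. Its difference was -0.26 (SE 0.63), and its sign turned with array weights, without lung tumor 323, without tumor 131 and among mammary tumors only, where it was 0.24.

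S100a1, S100a3 and S100a5 differed by less than the spread between arrays, but S100a1 and S100a3 changed sign and S100a5 changed size with the processing. Their differences were -0.08 (95% interval -0.85 to 0.70), 0.0066 (-0.44 to 0.46) and 0.23 (-0.13 to 0.58). S100a1 ranged from 0.54 to 1.46 in the sarcomatoid tumors and from 0.46 to 0.81 in 4 adenocarcinomas, with 2.38 in tumor 131. S100a3 ranged from -0.91 to -0.10 and from -0.80 to -0.0016. S100a5 ranged from -0.70 to 0.21 and from -0.73 to -0.38, and was not well above background in tumors 17 and 85. The S100a5 difference was 0.74 (SE 0.34) in the deposited table, 1.13 (SE 0.46) with the Feature Extraction ratio and 0.58 (SE 0.19) from the tumor channel alone, with limma adjusted p of 0.544, 0.507 and 0.442. It was 0.09 without lung tumor 307 and 0.05 among mammary tumors only. The other 9 members were well above background on all 10 arrays. S100a3 and S100a4 probes lie 3.45 kb apart and S100a5 lies 5.65 kb on the other side. The range of S100a5 was wider in the deposited table, from -1.75 in tumor 85 to 0.49 in lung tumor 307.

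**Figure D4:**
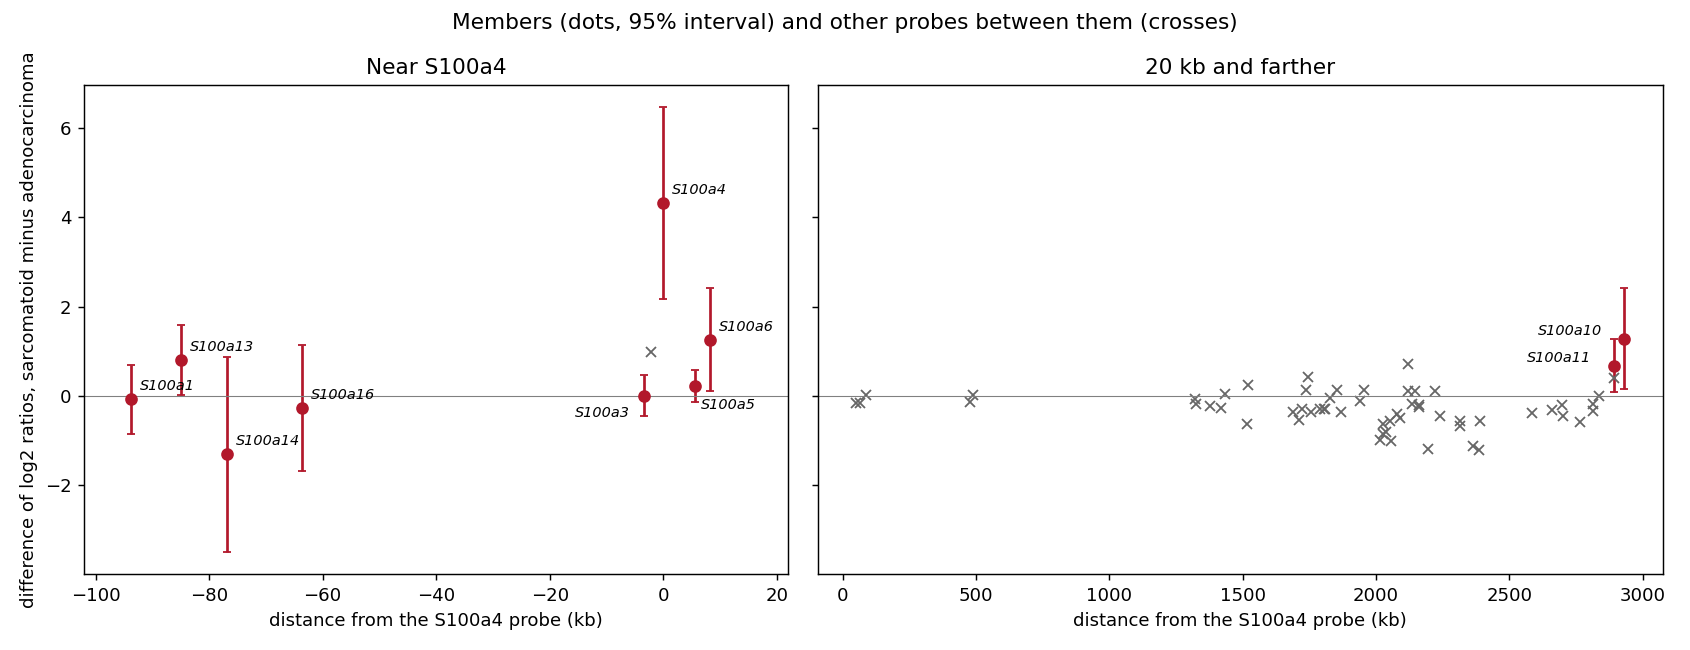
Difference of log2 ratios, sarcomatoid minus adenocarcinoma (y axis), against distance from the S100a4 probe in kb for member genes (red dots with 95% confidence intervals) and 58 other probes between the outermost members (grey crosses). The left panel holds the 8 members within 102 kb and 1 other probe, which lies at 0.99, and the right panel holds the rest.

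Other probes between the outermost members were described beside them. Of 58 such probes (46 named genes), only 15 were well above background on all arrays, so dim signal limits the rest. Of the 58, 15 were higher and 43 lower in sarcomatoid carcinomas, with a median difference of -0.28, against 48.8% higher among all probes. An unadjusted p below 0.05 was found for 2 of the 58, against 4053 of all 41174 probes. Limma's adjusted test called 0 of the 58. One of the pair was AK021069, an unnamed transcript whose probe lies between those of S100a3 and S100a4, 2.05 kb from the latter. It was -0.43 in tumor 323, 0.56 in lung tumor 323, -1.13 in 307, 0.12 in lung tumor 307 and -0.47 in 594, and between -1.48 and -1.09 in the adenocarcinomas. As for S100a4, mammary tumor 307 alone of the sarcomatoid tumors lay within the adenocarcinoma range. Its difference was 0.99 (SE 0.28, limma adjusted p = 0.381), and its r with S100a4 was 0.90. Whether the AK021069 probe lies inside the S100a4 gene was not looked up. The other of the pair was Sprr2g, with 0.42.

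Lung and mammary sarcomatoid tumors were compared in a fit of 3 groups, where the spread was estimated from the adenocarcinomas as well. The 2 lung arrays against 3 mammary arrays cannot give an exact permutation p below 0.1. Limma's adjusted test called no member, and 0.00486% of all probes. An unadjusted p below 0.05 was found for 3 of 10 members, S100a11, S100a14 and S100a5, against 7.05% of all probes. Each lung array was in a scan batch that held no mammary sarcomatoid tumor, so a comparison of site within a batch could not be made. By the study's methods each lung tumor also came from an injected cell line, and each mammary sarcomatoid tumor was a primary tumor. Site, growth in culture and host animal therefore cannot be told apart in this comparison.

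S100a14 was 2.98 lower in the lung tumors by log2 ratio, with a mean of -0.0022 ± 0.14 against 2.98 ± 0.54 in the mammary sarcomatoid tumors (SD, n = 2 and 3; SE of the difference 1.10, unadjusted p = 0.0242, adjusted p = 0.632). Within each tumor number the lung tumor was lower, by -2.26 for 323 and -3.35 for 307. The S100a14 spot was dim in lung tumors 323 and 307, at 114 and 158 in the tumor channel and 90 and 147 in the reference channel. The S100a14 difference was -3.93 in the deposited table and -3.71 with the Feature Extraction ratio. S100a11 was 0.82 higher in the lung tumors (SE 0.24, unadjusted p = 0.00926, adjusted p = 0.564), with 1.15 and 0.77 within the numbers. Its SE rests on leaving out the outlier spot of adenocarcinoma 17: with flagged spots kept the difference was 0.82 (SE 0.49), and in the deposited table it was 0.85 (SE 0.48). S100a5 was 0.44 higher (SE 0.19, unadjusted p = 0.0446, adjusted p = 0.698), with 0.19 and 0.91. This was 0.17 without lung tumor 307, 0.72 without lung tumor 323, 0.86 in the deposited table, 1.12 with the Feature Extraction ratio and 0.18 from the tumor channel alone. S100a4 was 2.15 higher (SE 1.27, adjusted p = 0.790) and S100a6 1.37 higher (SE 0.63, adjusted p = 0.716). Within the numbers S100a4 differed by 1.45 and 3.75 and S100a6 by 1.34 and 1.66. S100a16 was lower in both pairs, by -1.67 and -0.51, while S100a10 was higher in the lung tumor of 323 (0.43) and lower in that of 307 (-0.46). Its lung minus mammary difference was 0.10 (SE 0.77), with 1.27 (SE 1.14) when scan batch was a term, 1.11 without lung tumor 307 and -0.91 without lung tumor 323.

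The S100a4 value of the site comparison rested on few arrays. It was 1.09 without mammary tumor 307 and 2.60 (SE 1.27) with the tumor number as a block. With scan batch as a term it was 5.39 (SE 1.31), where S100a6 had 2.39, but this rests on the adenocarcinomas of the batches being alike. From the tumor channel alone the S100a4 value was 1.13. The lung tumors also differed in other markers. All 14 epithelial genes were lower in them than in mammary sarcomatoid tumors (median difference -2.36, 3 with an unadjusted p below 0.05, none called by limma's adjusted test). T cell genes were lower for 6 of 7 (median -0.92, 4 with an unadjusted p below 0.05) and endothelial genes for 7 of 8 (median -0.84, 1 with such a p), again with none called. Among all probes 7.05% had such a p in either direction. The mean of 12 lung epithelium genes was 0.14 and -0.01 in the lung tumors and -0.0010 to 0.23 in the mammary sarcomatoid ones, and 5 of the 12 had higher means in the lung tumors. The probe of Sftpa1, a surfactant protein gene, was not well above background on any of the 10 arrays. Scgb3a1, a secretoglobin of airway epithelium, was 1.59 in lung tumor 323 and 0.24 in lung tumor 307, against -0.13 to 0.37 in the mammary sarcomatoid tumors (difference 0.80, unadjusted p = 0.0509, not called by limma's adjusted test). Sftpc, another surfactant protein gene, was 0.61 in lung tumor 307 and -0.0046 in lung tumor 323, against -0.24 to 0.18 in those tumors. Sftpd, also a surfactant protein gene, was lower: -0.15 in lung tumor 323 and 0.21 in lung tumor 307, against 0.70 to 1.76. Its difference was -1.09 (limma unadjusted p = 0.0151, not called after adjustment), the only unadjusted p below 0.05 among the 12. The part of these in the S100 differences was not tested.

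Members that were higher in sarcomatoid carcinomas also varied with S100a4 from array to array. Over 10 arrays Pearson's r with S100a4 was 0.85 for S100a6, 0.86 for S100a11 (9 arrays), 0.77 for S100a13 and 0.76 for S100a10. It was 0.60 for S100a5, 0.25 for S100a3, -0.10 for S100a1, -0.15 for S100a16 and -0.58 for S100a14. Between S100a6 and S100a11 it was 0.80, and between S100a14 and S100a16 it was 0.62. These values describe the arrays and carry no test: they hold the group difference, the arrays share 1 reference, and 2 tumor numbers occur on 2 arrays each.

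Of 17991 probes of other named genes that were well above background on all arrays, 211 had a higher r with S100a4 than S100a6 had. Of the 5 genes most like S100a4, 4 are given here: Cx3cr1, the fractalkine receptor of monocytes and macrophages (r = 0.98), Lilra6, a leukocyte immunoglobulin-like receptor (0.97), Cfhr2 (0.97), and Vezt, which encodes an adherens junction protein (0.97). Cfhr2 has relatives of similar sequence, so its probe may share signal with them. Cx3cr1 was 3.36, 3.56, 2.70, 3.45 and 3.22 in tumors 323, lung 323, 307, lung 307 and 594, and 2.14, 1.66, 2.36, 1.86 and 1.33 in tumors 105, 131, 470, 17 and 85. Its order of tumors resembles that of S100a4 because it was chosen for that likeness. The least like were N4bp3 (-0.96), Arhgef28, a guanine nucleotide exchange factor (-0.95), Ctnnal1 (-0.94), Hip1r (-0.94) and Erlin2 (-0.93).

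Macrophage markers had higher means in the sarcomatoid group, as S100a4 had. All 12 macrophage genes had higher means in sarcomatoid carcinomas, against 48.8% of all probes, with a median difference of 1.40. Of the 12, 9 had a limma unadjusted p below 0.05, and 4.75% of all probes were higher with such a p. Limma's adjusted test called none of the 12. Csf1r, the receptor for macrophage colony-stimulating factor, differed by 1.64, Cd68 by 1.38 and Itgam, an integrin of myeloid cells, by 1.42. The mean of the list was 2.83 to 3.50 in the sarcomatoid tumors and 1.05 to 3.11 in the adenocarcinomas, where tumor 470 was the highest. Its r with S100a4 was 0.86 over the 10 arrays, as a description that holds the group difference. Within the sarcomatoid group the order was not that of S100a4: the list mean was 3.19 in lung tumor 323 and 2.97 in lung tumor 307, below 3.40 in tumor 323 and 3.50 in tumor 594, and tumor 470 lay above lung tumor 307. The median lung minus mammary difference of the list was -0.05. In bulk tumor RNA, fewer cells of a type and less RNA per cell cannot be told apart, and the part of macrophages in the S100a4 level was not tested.

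Epithelial and mesenchymal markers were read in the same way. All 14 epithelial genes were lower in the sarcomatoid group (median -1.92, 7 with an unadjusted p below 0.05), with Krt18 at -3.23 and Epcam at -2.32. All 14 fibroblast and mesenchymal genes were higher (median 0.84, 1 with an unadjusted p below 0.05), Vim by 1.33. Limma's adjusted test called none on either list. Among all 41174 probes 48.8% had higher means and 4.75% were higher with a limma unadjusted p below 0.05. With such a p 2097 probes were lower. The mean of the mesenchymal list was -0.27 in tumor 323, -0.65 in lung tumor 323, 0.23 in 307, 1.74 in lung tumor 307 and 1.63 in 594, so that it was lowest of these in the tumor with the highest S100a4. Its r with S100a4 was 0.54 over the 10 arrays, and that of the epithelial list was -0.80. All 8 mammary secretory genes were lower (median -1.49).

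**Figure D5:**
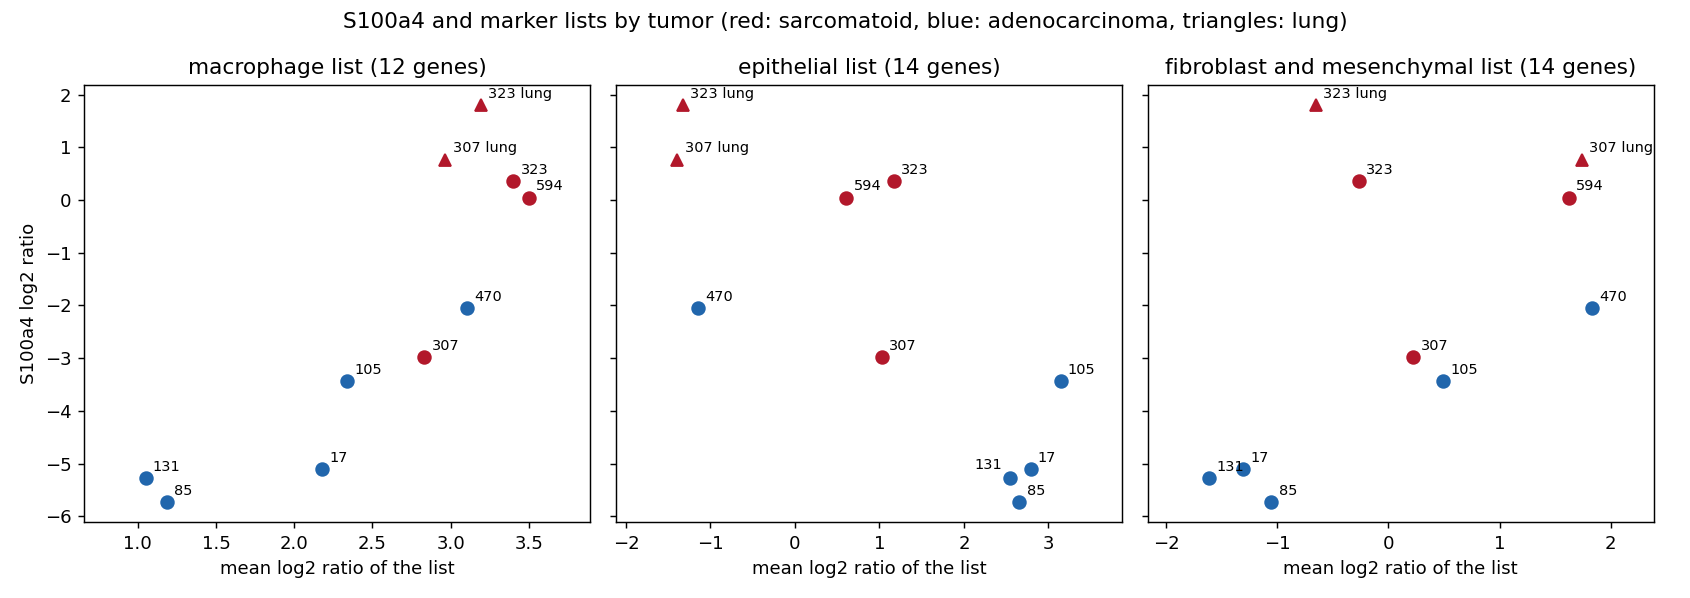
Log2 ratio of S100a4 (y axis) against the mean log2 ratio of 12 macrophage, 14 epithelial and 14 fibroblast and mesenchymal genes (x axes), 1 symbol per tumor. Sarcomatoid tumors are red, adenocarcinomas blue and lung tumors triangles. The tumors with the lowest S100a4, 131 and 85, have the lowest macrophage means (1.05 and 1.19), and tumor 470 lies nearer to the sarcomatoid tumors than the other adenocarcinomas do.

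Genes tied to the S100 proteins were taken from a list of partners. Of 14 partner genes, 9 had higher and 5 lower means in sarcomatoid carcinomas, with a median of 0.22, and only Anxa2 had an unadjusted p below 0.05. Myh9, the non-muscle myosin heavy chain that S100a4 binds, differed by -0.13, and Cacybp, the calcyclin-binding protein, by 0.31. Ager, which encodes the receptor for advanced glycation end products, differed by -0.01. Limma's adjusted test called 0 of the 14.

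S100 genes outside the member set showed no like shift, though dim signal limits S100a7a and S100g. Of 6 listed, 5 had a probe, with a median difference of -0.15 and no unadjusted p below 0.05. S100a7a was well above background in 3 sarcomatoid carcinomas and 4 adenocarcinomas, and S100g in 3 and 2. S100a8 and S100a9, the calprotectin subunits of neutrophils, differed by -0.16 and 0.02. The 9 neutrophil genes with a probe had a median of 0.02, and T cell (0.16), endothelial (-0.01) and lung epithelium (-0.0077) lists lay near 0 as well. S100b, which lies on another chromosome, differed by -1.52 (SE 0.97). It was 6.54 in adenocarcinoma 131 and -0.08 to 2.57 on the other arrays.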

How the data were processed

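Two-colour Agilent arrays were analysed, 1 per tumor. The authors deposited the scanner output (Feature Extraction intensity of both channels per spot, with background and flags, and a log10 ratio of the processed signals) and a normalized table on a log2 scale, whose limma steps are not given in the sources used here. Background was corrected by normexp (offset 50) on the median signals, and each array was then normalized by loess. Control spots and outlier-flagged spots (0.228% to 0.576%) were dropped, and replicate spots averaged. The authors' log2 table and log10 ratio were used as alternatives.

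Groups were compared with limma (version 3.58.1, R 4.3.3), with Benjamini-Hochberg adjustment over 41174 probes and a threshold of 0.05, and single genes with exact permutation tests. The limma step was tested on simulated data. The number of arrays limits the precision. Nothing states that adenocarcinomas came from separate animals, so p-values measure the spread between these tumors. Probes were named by accession, symbol or synonym through the GRCm38.p6 gene table (32719 named, 8455 not). Coordinates of probes are those of mm7 in the files.

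Lung and mammary tumors of a number are paired by the methods, and their deviations from the site means correlated at 0.15 across probes. Named were all members, the 5 genes most and least like S100a4 by Pearson's r among probes well above background on all arrays, probes between the members, and listed genes, 1 probe each by mean signal. One of the genes most like S100a4 is not reported here. Members, lists and alternatives were chosen with earlier results of these data known. Correlations between arrays (0.373 to 0.822) showed no copies.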

Additional observations from a re-analysis of the deposited data

Results flagged for a closer look

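S100a1 in adenocarcinoma 131 had a log2 ratio of 2.38, against 0.46 to 0.81 in the other 4 adenocarcinomas, and its gap to the nearest of them was 0.817 of the group's range, above the critical value of 0.71 for 5 samples. Chance marks about 1 group in 20, and 20 groups of member values were searched, so about 1 is expected by chance. Without tumor 131 the difference of S100a1 was 0.26 in place of -0.08.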

How the results depend on the processing

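Leaving out tumor 470 raised the probes called between sarcomatoid carcinoma and adenocarcinoma from 0 to 632 and took S100a4 past the threshold (4.89, adjusted p = 0.0416). Leaving out any 1 array gave 0 to 632 probes and an S100a4 difference of 3.87 to 5.06. Median centring called 1 probe, slide as a block 3 and 1 value per tumor number 3. With tumor number as a random replicate block S100a4 differed by 4.32 and no probe was called. Over the alternatives other than leaving out arrays, S100a4 ranged from 3.26 to 4.40 (adjusted p 0.261 to 0.619) and 6 to 8 members were higher, 6 to 9 when 1 array was left out.

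In the lung comparison 2 probes were called. This was 10 with the deposited table, 5 with the Feature Extraction log ratio, 5 with the tumor channel alone, 7 with array weights, 0 with scan batch as a term, 1 with tumor number as a replicate block and 0 to 34 when 1 array was left out. S100a4 ranged from 1.13 to 5.39, where 5.39 came with scan batch as a term, and from 1.09 to 2.76 when 1 array was left out.

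Members near 0 changed sign. Between the groups, S100a1 became 0.0036 with the Feature Extraction log ratio, 0.018 with the tumor channel alone, 0.0027 in mammary tumors and -0.22 to 0.26 when 1 array was left out. S100a16 became 0.078 with array weights and 0.24 in mammary tumors, and -0.74 to 0.12 when 1 array was left out. S100a3 became -0.0033 without background correction, -0.13 with median centring, -0.011 with scan batch, -0.046 with slide, -0.012 per tumor number, -0.14 in mammary tumors and -0.082 to 0.12 when 1 array was left out. Between lung and mammary tumors, S100a10 became -0.019 with the replicate block and -0.91 to 1.11 when 1 array was left out. S100a13 became -0.16 with the tumor channel alone and -0.10 to 0.31 when 1 array was left out, and S100a1 ran from -0.49 to 0.094. The cause of these moves was not tested. Each member had 1 probe, so other probes could not be tried. Dim signal limits S100a5, which was not well above background in tumors 17 and 85. It may also limit S100a14 in the lung tumors, where both channels were dim though the tumor channel was well above background.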
